A study of Mus musculus with 9 samples.

Results

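The heat shock protein and DnaJ chaperone genes of mouse spermatocytes were taken from a table of RNA sequencing counts as the protein-coding genes whose symbols begin with Hspa, Hspb, Hspd1, Hspe1, Hsph1, Hsp90 or Dnaj. The 5 endoplasmic reticulum genes Hspa5, Hsp90b1, Dnajb9, Dnajb11 and Dnajc3 were left out. This gave 70 genes of the 49216 with counts. They comprise 10 HSP70 genes, 3 HSP110 genes, 2 HSP90 genes and 3 chaperonin genes. A further 8 are named Hspb with a number, Hspb11 among them, and were counted as small heat shock genes by symbol alone. The rest are 2 genes whose symbols share the Hspb start only (Hspbp1 and Hspbap1), and 4, 11 and 27 DnaJ genes of types A, B and C. Most of the encoded proteins work in the cytosol, but the name rule also takes in mitochondrial proteins such as Hspa9, Hspd1, Hspe1, Dnaja3 and Dnajc19, and endoplasmic reticulum proteins such as Hspa13 and Dnajc10. From the 70, 10 genes known for expression in mouse testis were set beside the rest as testis members: Hspa2, Hspa1l, Hspa4l, Hspb9, Dnajb3, Dnajb7, Dnajb8, Dnajb13, Dnajc5b and Dnajc5g.

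The cells were germ cells at the pachytene and diplotene stages of meiosis, from C57Bl mice that carry tdTomato driven by a promoter specific to germ cells, sorted from digested testis and kept in culture. The 3 groups had 3 libraries each, named A, B and C. The first group received 0.3 mM octyl-L2HG, a cell-permeable ester of L-2-hydroxyglutarate, together with 24 mM oxamate, an inhibitor of lactate dehydrogenase, for 48 h. The second received 24 mM oxamate alone for 48 h, and the third was untreated, with no culture time given. No group received octyl-L2HG without oxamate. In every comparison with untreated cells, the treatment and the time in culture therefore cannot be told apart. The labels are silent on whether a group's libraries stem from different cultures or animals, and p-values here cover the spread among libraries, possibly technical, and no more.

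HSP70 proteins bind unfolded stretches of other proteins in a cycle driven by ATP. DnaJ proteins (HSP40) bring them clients and trigger ATP hydrolysis, HSP110 proteins release the nucleotide, and HSP90 proteins take over clients such as kinases and receptors. Small heat shock proteins hold unfolding proteins without using ATP. Under stress, the transcription factor HSF1 drives many of these genes through heat shock elements, inverted repeats of the unit GAA, and Hspa1a and Hspa1b are the classical stress-induced HSP70 genes. Male germ cells of the mouse also make their own forms: Hspa2 appears in pachytene spermatocytes and is needed to complete meiotic prophase, and Hspa1l is known as a spermatid HSP70.

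Promoter sequence was examined because the stress-induced and the germ cell members are known for different control. RefSeq windows of 300 bases (250 before to 50 after the start, GRCm38.p6) were at hand for 55 of the 70 members. A heat shock element of 3 units (GAANNTTCNNGAA or TTCNNGAANNTTC, both strands) was found in 4 of the 55, or 7.27%, against 0.662% of 27025 genes with a window. These 4 were Hsph1, Hspe1, Hspd1 and Dnajb6. Hspd1 and Hspe1 are divergent neighbours with overlapping windows and share their site, so the 4 members rest on 3 sites. A stretch of 2 units (GAANNTTC or TTCNNGAA, which lies inside every 3-unit match) was found in 16 of the 55, or 29.1%, against 17.0% of all genes. Of the 9 testis members with a window, 0 held the 3-unit form and 1, Dnajc5g, held the 2-unit form. The palindromic cyclic AMP response element TGACGTCA was found in 1 member, Dnajc27, or 1.82% against 2.03% of all genes. The 3 sites of the 3-unit element are shown first, with the element in capitals (in Hspe1, a run of 18 bases made of a pair of overlapping 3-unit matches). They are from a member lower in both treated groups (Hsph1, chr5:149636282-149636306, minus strand), a mitochondrial member (Hspe1, chr1:55088053-55088082, plus strand) and an abundant DnaJ gene (Dnajb6, chr5:29735846-29735870, plus strand). The Hsph1 stretch lies after the start, at positions 10 to 34. Those of Hspe1 (-95 to -66) and Dnajb6 (-133 to -109) lie before it.
Hsph1: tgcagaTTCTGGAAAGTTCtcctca
Hspe1: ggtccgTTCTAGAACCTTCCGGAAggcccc
Dnajb6: ctccgaGAATCTTCCGGAAcgctag
The next pair sets the stress-induced gene Hspa1a (chr17:34972208-34972305, minus strand, 2-unit match in capitals) beside its neighbour Hspa1l (chr17:34972603-34972702, plus strand, no match), whose start lies on the other side of the same short interval.
Hspa1a: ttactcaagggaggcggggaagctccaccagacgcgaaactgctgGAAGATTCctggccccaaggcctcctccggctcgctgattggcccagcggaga
Hspa1l: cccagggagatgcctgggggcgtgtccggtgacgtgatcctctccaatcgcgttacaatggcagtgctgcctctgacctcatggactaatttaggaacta
The last 3 are Dnajb8 (chr6:88222168-88222267, plus strand) and Dnajb7 (chr15:81408300-81408373, minus strand), which fell with octyl-L2HG, and Hspa2 (chr12:76404290-76404369, plus strand), which did not pass the test there; these stretches hold none of the 3 motifs.
Dnajb8: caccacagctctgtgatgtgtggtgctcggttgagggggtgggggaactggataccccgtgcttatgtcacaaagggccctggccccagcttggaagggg
Dnajb7: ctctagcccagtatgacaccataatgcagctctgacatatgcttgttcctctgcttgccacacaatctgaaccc
Hspa2: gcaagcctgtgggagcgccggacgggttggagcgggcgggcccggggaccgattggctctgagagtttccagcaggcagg
A match is a description of letters, and the absence of one says only that these letters are not in the window.

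Library totals ran from 24849620 to 46671048 counts, and the 70 members together took 1.26% to 1.42% of each library. All 12 pachytene and diplotene markers were detected, and their summed level was 7787 to 8932 CPM with octyl-L2HG plus oxamate, 7820 to 8106 CPM with oxamate and 8834 to 9084 CPM in untreated cells (CPM, counts scaled to a common library size). Of the listed Sertoli cell genes, Gata4 had 0 counts in all libraries, and Sox9, Wt1, Cldn11 and Rhox5 had at most 3 counts in any library. Amh and Inha had at most 17 and 80 counts. Of the 2 Sertoli genes tested, 1 was higher in each comparison with untreated cells (limma-voom adjusted p under 0.05). The summed Sertoli list, nearly all of it Tjp1, was 76.7 to 83.5, 73.3 to 91.8 and 55.7 to 56.8 CPM in the same order of groups. Summed spermatogonial, Leydig, macrophage, and peritubular and endothelial lists each stayed below 10 CPM. Markers of elongating spermatids were present in all groups and differed strongly between them, as given beside the members below. In a principal component analysis the third octyl-L2HG library (C) lay apart from the rest of its group on the first component. It stood at 49.6 there, against 100 and 103 for libraries A and B, so the calls that rest on this group are also described without it. On the second component libraries A and B lay apart from each other, at 35.7 and -32.4, with C between them at 11.5. Library C is therefore not the only one that differs within this group.

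By counts per kilobase, the highest members were a germ cell HSP70, an HSP90 and 2 small testis genes. The length is that of all annotated exons of a gene merged, which can exceed its longest transcript. For Dnajb6 it is 6062 bases against 2918, so its place depends on the length used. Hspa8, with 74.8% of windows shared with other genes, cannot be placed in this order. Per kilobase of exon in untreated cells, the order was Hspa2 (1029 ± 59.8 CPM per kb), Hspb9 (645 ± 60.2), Hsp90aa1 (619 ± 40.7, with 58.5% of windows of 50 bases also found in other genes), Dnajb3 (400 ± 11.7) and Dnajb1 (148 ± 2.61; SD, n = 3 libraries). Hspb9 and Hsp90aa1 did not differ beyond their spread. Below them Hspa9 (130 ± 9.72), Dnajb6 (130 ± 14.5), Dnajc5g (124 ± 12.8), Hspa4 (106 ± 9.84) and Hspa4l (105 ± 6.51) also lay within each other's spread from one neighbour to the next. For Dnajb6, 42.8% of windows are also found in other genes, so its level carries the same limit as that of Hsp90aa1. With octyl-L2HG plus oxamate and with oxamate, the same 4 genes led, with Hsp90aa1 in second place at 630 ± 92.1 and 559 ± 52.9 CPM per kb. Hsp90aa1, Hspa2, Hspa4l and Dnajb6 held 48.9% to 53.2% of all member counts in every library. Hspa2 alone held 15.5% to 16.1% of member counts with octyl-L2HG plus oxamate, 16.8% to 17.9% with oxamate and 19.6% to 20.1% in untreated cells, so the 3 groups did not overlap in this share.

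The classical stress-induced HSP70 genes were close to absent in every group. Hspa1a had 2, 0 and 0 counts with octyl-L2HG plus oxamate (libraries A, B and C), 2, 5 and 0 with oxamate, and 3, 1 and 5 in untreated cells. Hspa1b had 0 counts in all 9 libraries, where a count of 0 allows up to 3 counts, or 0.0643 to 0.121 CPM before scaling, depending on the library. Sequence shared with other genes limits these values. Of the windows of 50 bases in the longest transcript, 66.3% for Hspa1a and 62.3% for Hspa1b occur in another gene, mostly in each other. The treatment of reads that match several genes is not stated in these sources. The same limit holds for Hspa8, the constitutive HSP70 of most cells, which had 14, 12.5 and 13.0 CPM with octyl-L2HG plus oxamate, 13.3, 12.7 and 14.2 CPM with oxamate and 12.5, 11.2 and 13.0 CPM in untreated cells. For Hspa8, 74.8% of windows are shared, so its low level cannot be read as low expression, and the groups overlap. Hspd1 and Hspe1, the mitochondrial chaperonin and its cap, had 29 to 82 and 19 to 62 counts per library with 44.8% of windows shared for each. Hspb1, a widely stress-induced small heat shock gene, had 17 to 38 counts with 51.6% of windows shared. Hspb2, Hspb3 and Hspb8 had at most 10 counts in any library. They were among the 6 members, with Hspa1a and Hspa1b, that fell below the filter on low counts, which left 64 members among 18234 genes tested. Of those 64, 62 reached the filter's level of 0.288 CPM in all libraries; Dnajc22 and Hspa12b did not, and passed through the groups in which they were higher.

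The comparison of octyl-L2HG plus oxamate with oxamate asks what the added octyl-L2HG changes. A few chaperones fell steeply while the abundant ones stayed near their levels. Of the 64 members, 9 fell and 1 rose (limma-voom, Benjamini-Hochberg adjusted p under 0.05), against 15.4% of all tested genes lower and 4.11% higher, so the share of members that fell is near the background. By a fall of at least 2-fold as well, 7 members passed, against 12.5% of all genes. Over the 62 members that reached the filter's level in all libraries, which leaves out Hspa12b, 8 fell, 6 of them at least 2-fold. The share of all genes under that stricter condition was not counted, so these 2 counts have no matched background. Of the 10 testis members, 5 fell, 4 of them at least 2-fold, and 0 rose; of the other 54 tested, 4 fell and 1 rose. The median log2 change was -0.23 for the testis members, 0.09 for the other members and 0.07 for all genes. By family, the falls were 2 of 8 HSP70 genes, 1 of 4 type A, 3 of 11 type B and 3 of 27 type C DnaJ genes. None of the tested HSP110, HSP90, chaperonin or small heat shock genes passed the test in this comparison; at an unadjusted p under 0.05 there were also 0.

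**Figure D1:**
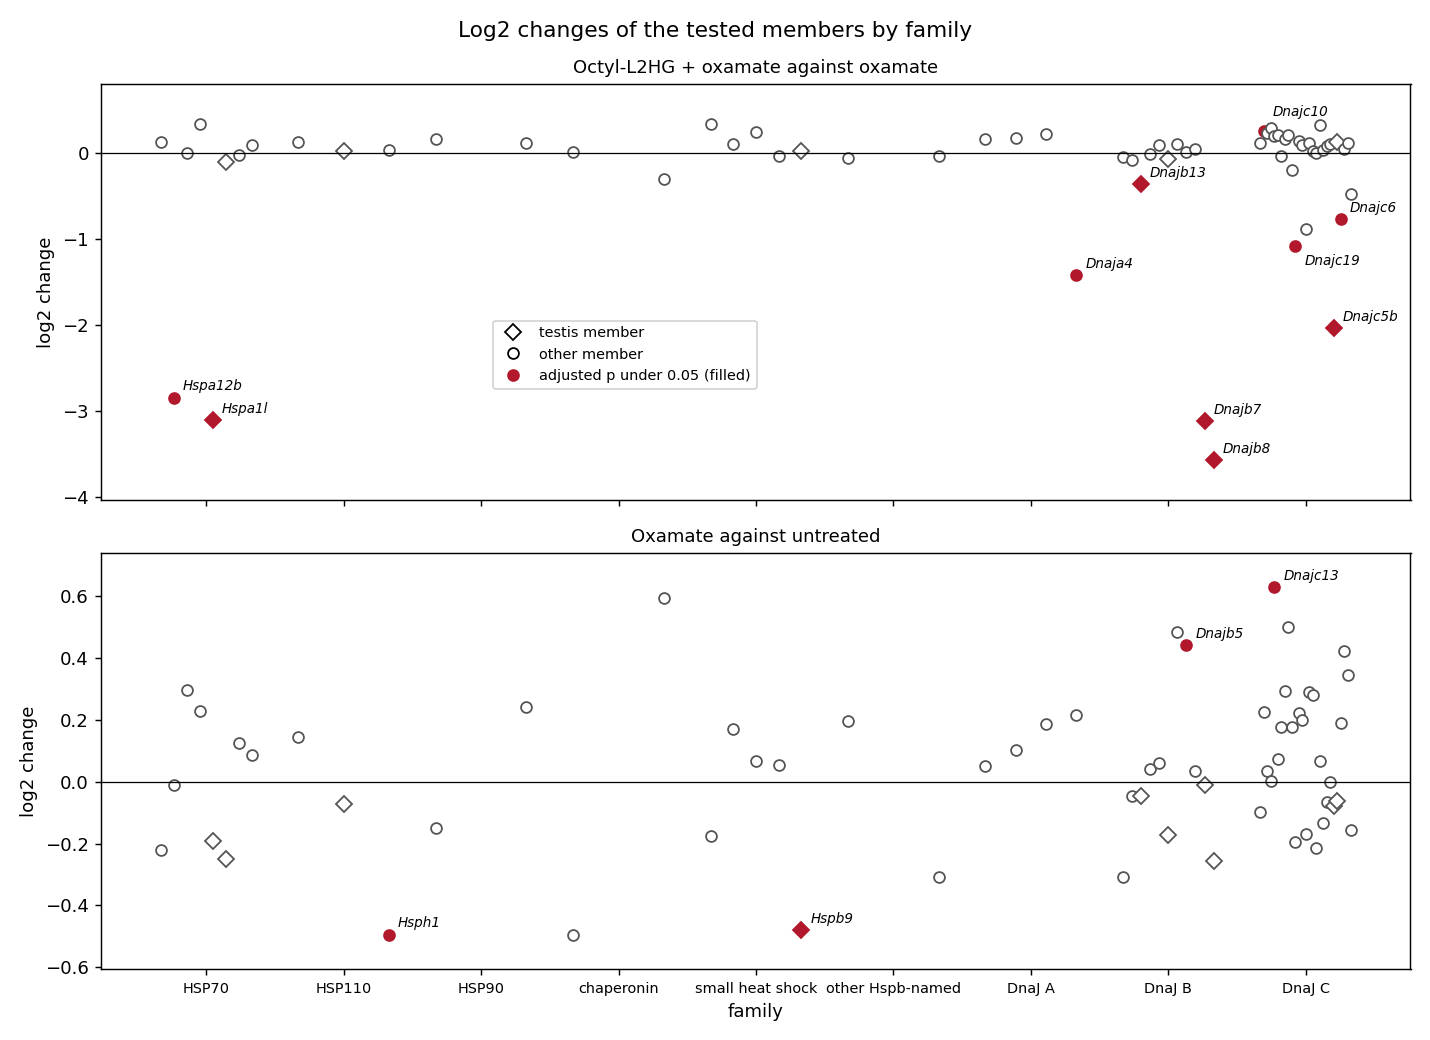
Log2 changes of the 64 tested members by family (x axis), for octyl-L2HG plus oxamate against oxamate (top) and oxamate against untreated (bottom; with a narrower y axis). Diamonds are testis members and filled points passed an adjusted p of 0.05; in the top panel 9 members lie below 0 and 1 above among the filled points, and in the bottom panel 2 lie above and 2 below.

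Hspa1l (ENSMUSG00000007033, chromosome 17, 34972703 to 34979285, plus strand), the spermatid HSP70, had 4.81, 3.74 and 11.8 CPM with octyl-L2HG plus oxamate, against 57.7, 44.8 and 57.1 CPM with oxamate and 64.6, 56.5 and 60.4 CPM in untreated cells. Every octyl-L2HG library lay below every other library. It fell 8.61-fold against oxamate (log2 change -3.11, SE 0.28, limma-voom adjusted p = 5.1e-05). Hspa1l shares 71.9% of its exon bases with the antisense gene Gm10501, and without knowledge of the strand setting reads of the pair cannot be told apart. Gm10501 itself had 20, 7 and 26 counts with octyl-L2HG plus oxamate, against 43, 21 and 44 counts with oxamate, and fell as well (limma-voom adjusted p = 0.018).

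Among the type B DnaJ genes, which pass clients to HSP70, the steepest falls were in Dnajb8 and Dnajb7. Dnajb8 (ENSMUSG00000048206, chromosome 6, 88222268 to 88254415, plus strand), a suppressor of protein aggregation known from human cells, had 1.3, 1.19 and 4.34 CPM with octyl-L2HG plus oxamate, against 25.0, 20.3 and 24.6 CPM with oxamate and 31.5, 23.7 and 28.3 CPM in untreated cells. It fell 11.9-fold against oxamate (log2 change -3.58, SE 0.34, limma-voom adjusted p = 6.0e-05). Dnajb8 shares 37.2% of its exon bases with the antisense gene 1700031F10Rik, which had at most 40 counts in any library. Dnajb7 (ENSMUSG00000047108, chromosome 15, 81406926 to 81408299, minus strand), which shares no exon base or window with another gene, had 3.13, 4.36 and 8.75 CPM, against 37.6, 39.7 and 52.3 CPM with oxamate and 43.9, 41.9 and 43.6 CPM in untreated cells. It fell 8.71-fold (log2 change -3.12, SE 0.27, adjusted p = 4.4e-05 by limma-voom). Dnajb13, a protein of the radial spokes of the sperm flagellum, fell less. It had 88.5, 95.2 and 91.4 CPM with octyl-L2HG plus oxamate, against 120, 115 and 119 CPM with oxamate and 124, 121 and 120 CPM in untreated cells, and its log2 change against oxamate was -0.37 (SE 0.07, limma-voom adjusted p = 0.0031).

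Among the type C genes, Dnajc5b (ENSMUSG00000027606, chromosome 3, 19508595 to 19610862, plus strand), a testis form of the cysteine string proteins of secretory vesicles, had 4.12, 4.58 and 8.68 CPM with octyl-L2HG plus oxamate. It had 22, 21.8 and 24.2 CPM with oxamate and 25.8, 22.2 and 23.6 CPM in untreated cells. It fell 4.12-fold against oxamate (log2 change -2.04, SE 0.21, limma-voom adjusted p = 8.8e-05). Its testis relative Dnajc5g did not: it had 197, 235 and 203 CPM with octyl-L2HG plus oxamate, against 175, 206 and 200 CPM with oxamate, with a log2 change of 0.12 (95% interval -0.10 to 0.35). The difference in response between these 2 relatives was not tested. Dnajc19, a partner of HSP70 in the mitochondrial import motor, had 1.85, 2.24 and 2.49 CPM, against 4.50, 4.15 and 5.07 CPM with oxamate and 5.47, 5.30 and 4.95 CPM in untreated cells (log2 change -1.08 against oxamate, limma-voom adjusted p = 0.00056). Dnajc6, the clathrin-uncoating protein auxilin, had only 15 to 41 counts in any library and a log2 change of -0.77 (adjusted p = 0.039, limma-voom). That call was lost in 8 of 16 alternative settings, among them the one without octyl-L2HG library C (log2 change -0.55, adjusted p = 0.13).

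Outside the testis members, the type A gene Dnaja4 had 18.0, 19.3 and 28.9 CPM with octyl-L2HG plus oxamate, against 55.1, 54.6 and 64.6 CPM with oxamate and 51.5, 50.2 and 47.9 CPM in untreated cells. It fell 2.68-fold against oxamate (log2 change -1.42, SE 0.15, limma-voom adjusted p = 9.8e-05), while Dnaja1, Dnaja2 and Dnaja3 did not pass the test. Dnaja4 shares 44.1% of its exon bases with Wdr61 on the opposite strand, which had 24.0, 21.4 and 21.5 CPM with octyl-L2HG plus oxamate, against 17.9, 16.6 and 19.7 CPM with oxamate (adjusted p = 0.055 by limma-voom). Hspa12b, a distant HSP70 relative known from endothelium, had 3, 2 and 2 counts with octyl-L2HG plus oxamate, against 28, 8 and 24 counts with oxamate and 35, 22 and 8 counts in untreated cells. Its fitted log2 change of -2.85 (limma-voom adjusted p = 0.013) depends on the offset added to counts this low, and the call was lost without octyl-L2HG library A (adjusted p = 0.062). Of the 4 tested peritubular and endothelial markers 3 were lower in the same comparison, with sums of 3.53, 6.51 and 5.15 CPM with octyl-L2HG plus oxamate, against 6.09, 7.05 and 8.63 CPM with oxamate and 8.39, 9.44 and 8.85 CPM in untreated cells; their part in the fall of Hspa12b was not tested. The 1 member that rose was Dnajc10, a disulfide reductase of the endoplasmic reticulum, at 178, 173 and 168 CPM, against 145, 150 and 139 CPM with oxamate and 124, 119 and 127 CPM in untreated cells. Its 3 groups do not overlap, yet the rise against oxamate is small (log2 change 0.26, SE 0.07, limma-voom adjusted p = 0.022) and was lost in 8 of 16 alternative settings.

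The abundant testis members gave a different picture. Hspa2 had 1977, 2464 and 1986 CPM with octyl-L2HG plus oxamate, against 2125, 2387 and 2344 CPM with oxamate (log2 change -0.10, 95% interval -0.31 to 0.10). Hspa4l, an HSP110 protein needed for normal sperm numbers and motility in mice, had 1161, 1299 and 1153 CPM, against 1070, 1237 and 1243 CPM with oxamate (log2 change 0.03, 95% interval -0.16 to 0.21). Hspb9, a testis small heat shock gene, had 387, 321 and 316 CPM, against 403, 304 and 306 CPM with oxamate (log2 change 0.02, 95% interval -0.25 to 0.30). Dnajb3, a spermatid DnaJ gene, had 350, 361 and 353 CPM, against 376, 370 and 373 CPM with oxamate (log2 change -0.07, 95% interval -0.21 to 0.07). A 2-fold fall lies outside each of these 4 intervals, whereas Hspa1l, Dnajb7 and Dnajb8 fell 8.61-, 8.71- and 11.9-fold. The abundant members outside the testis group also did not pass the test. Hsp90aa1, the inducible cytosolic HSP90, had 2435, 2856 and 2135 CPM, against 1964, 2271 and 2360 CPM with oxamate (log2 change 0.16, 95% interval -0.07 to 0.40). Dnajb6, Dnaja1 and Hspa4 had log2 changes of 0.05, 0.16 and 0.13. Hspb11, Hspd1, Hspe1, Hspb1 and Hspa8, with far fewer counts, had 0.10, 0.01, -0.30, 0.34 and -0.02 and did not pass the test either. At the few counts of Hspd1, Hspe1 and Hspb1 given above, this does not show a stable level.

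**Figure D2:**
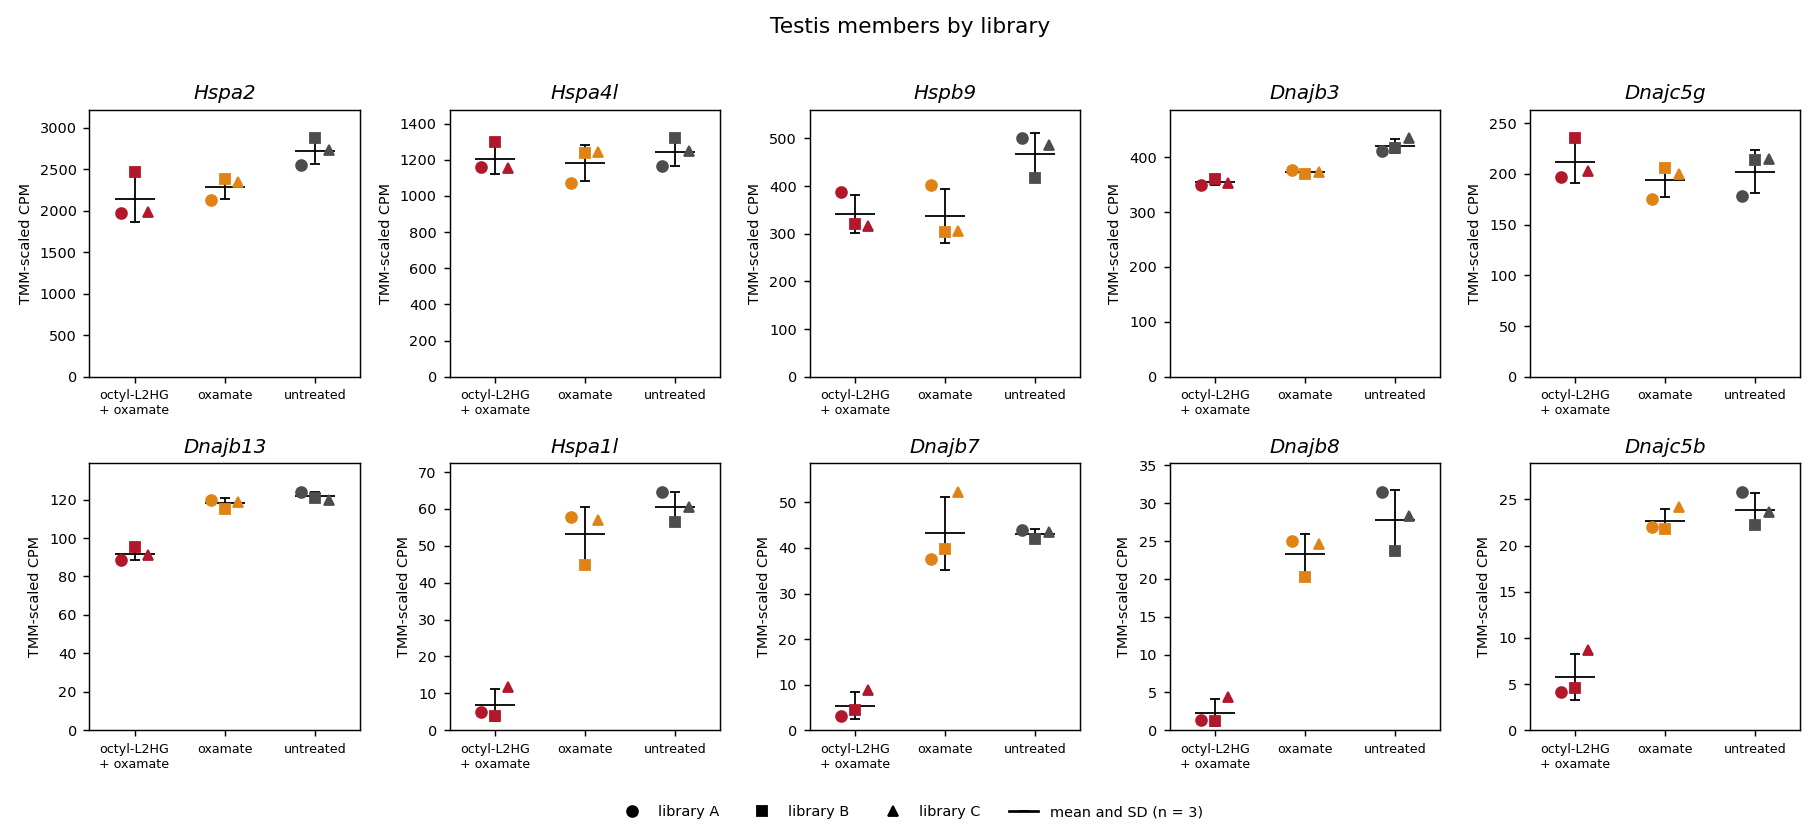
Levels of the 10 testis members in each library (y axis, TMM-scaled CPM from 0; x axis, group; circle, square and triangle for libraries A, B and C; horizontal line and bar for mean and SD, n = 3). In Hspa1l, Dnajb7, Dnajb8 and Dnajc5b the octyl-L2HG libraries lie far below both other groups with library C the highest of the 3, while in Hspa2, Hspa4l, Hspb9, Dnajb3 and Dnajc5g they overlap or lie near the oxamate libraries.

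Spermatid genes moved with these falls. All 12 listed markers of elongating spermatids, such as the protamine genes Prm1 and Prm2, were lower with octyl-L2HG plus oxamate than with oxamate (limma-voom adjusted p under 0.05), and their summed level was 149, 157 and 385 CPM with octyl-L2HG plus oxamate, against 1157, 937 and 1136 CPM with oxamate and 1462, 1237 and 1398 CPM in untreated cells. None of the 12 was at 0 in all libraries; the lowest single value was 0.088 CPM, for Tssk6. For round spermatids, 9 of 12 markers were lower than with oxamate, and the sums were 1329, 1556 and 1399 CPM, against 1700, 1733 and 1745 CPM with oxamate and 1864, 1924 and 1880 CPM in untreated cells. These sums rest largely on Spata16, Acr and Actl7b, at 660 to 893, 223 to 304 and 173 to 321 CPM over all libraries. They therefore say little about the other markers of that list. Of 12 pachytene and diplotene markers, 1 was higher and 1 lower. Octyl-L2HG library C had the highest elongating spermatid sum of its group but not the highest round spermatid sum. It also had the highest Hspa1l, Dnajb7, Dnajb8, Dnajc5b, Dnaja4 and Dnajc19 of its group. Of the other members that fell, Dnajb13 and Hspa12b were highest in library B, and Dnajc6 was lowest in library C. Without library C the falls of Hspa1l, Dnajb7, Dnajb8, Dnajc5b and Dnaja4 against oxamate were larger, with log2 changes of -3.61, -3.57, -4.20, -2.39 and -1.65. The log2 changes of Dnajc19, Dnajb13, Hspa12b and Dnajc10 without it were -1.19, -0.36, -2.69 and 0.28, so that 9 of the 10 calls against oxamate were kept and that of Dnajc6 was lost. In bulk RNA, fewer spermatid-type cells and less of these RNAs per cell cannot be told apart. The part of the spermatid markers in the falls was not tested.

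**Figure D3:**
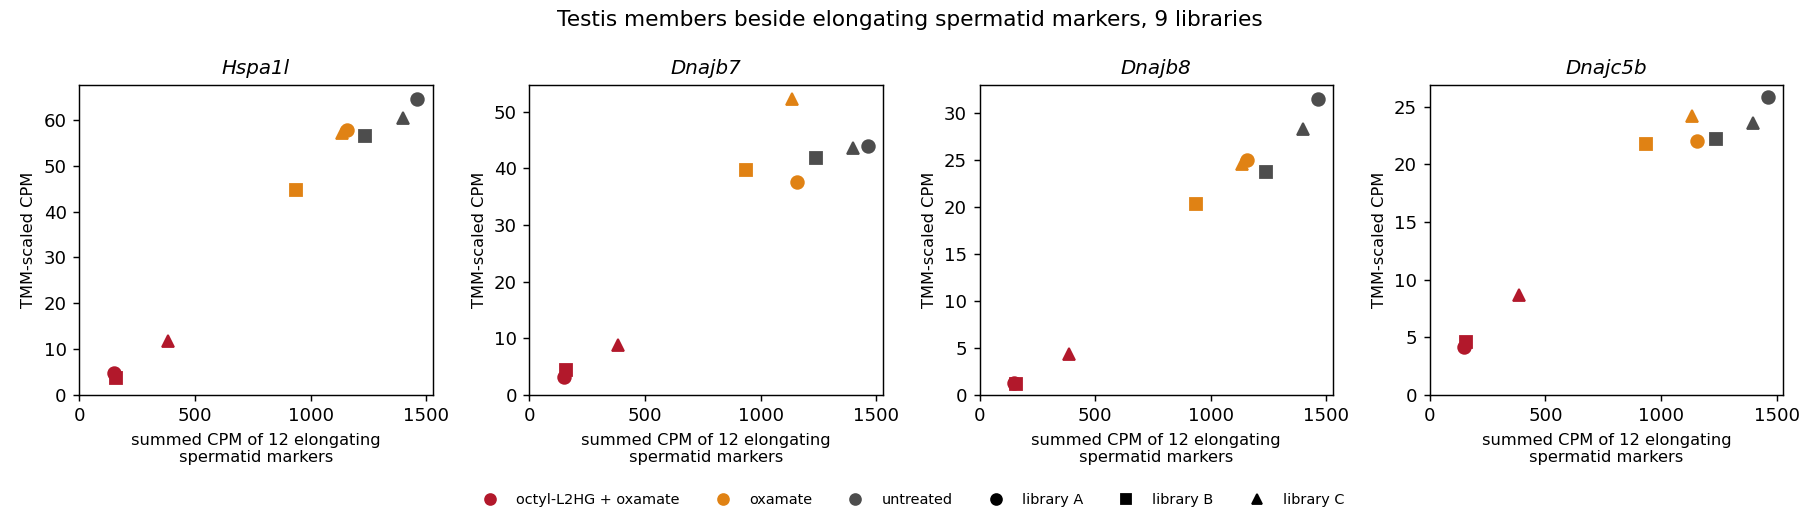
Level of Hspa1l, Dnajb7, Dnajb8 and Dnajc5b (y axes, TMM-scaled CPM) against the summed CPM of 12 elongating spermatid markers (x axis) in the 9 libraries, coloured by group and shaped by library letter. The octyl-L2HG libraries A and B sit at 149 and 157 CPM of markers with the lowest levels of all 4 genes, library C at 385 CPM with intermediate levels, and all oxamate and untreated libraries at 937 CPM or more.

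Oxamate against untreated cells sets cells kept 48 h with the lactate dehydrogenase inhibitor beside cells with no stated culture time, and few chaperones moved. Dnajc13 and Dnajb5 rose and Hsph1 and Hspb9 fell, which is 2 of 64 members in each direction, against 5.74% of all tested genes higher and 3.84% lower (limma-voom). The median log2 change was 0.05 for the members and -0.01 for all genes, and no member changed by 2-fold. Same-letter libraries of these 2 groups deviated together. With the letter as a block, in a fit that also holds the octyl-L2HG libraries, the members called were 9 higher and 7 lower, against 12.1% and 9.99% of all genes. Both counts are near the background. The authors' deposited table gave 4 higher and 3 lower among 66 members with an adjusted p.

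Dnajc13 (RME-8), which works with HSP70 on endosomes, was the clearest of these. It had 59.6, 61.4 and 65.2 CPM with oxamate, against 39.4, 39.3 and 41.7 CPM in untreated cells, with no overlap (log2 change 0.63, SE 0.08, limma-voom adjusted p = 0.0019). With octyl-L2HG plus oxamate it stood at 72.7, 68.8 and 72.1 CPM, above all libraries of both other groups, but the step from oxamate did not pass the test. Dnajb5, a type B co-chaperone of HSP70, had 21.8, 23.9 and 21.1 CPM with oxamate, against 15.6, 16.4 and 17.0 CPM in untreated cells (log2 change 0.44, adjusted p = 0.032, limma-voom). Hsph1 (HSP105) encodes an HSP110 protein that releases nucleotide from HSP70, and the gene carries the 3-unit element printed above, after its start. It had 35.2, 39.7 and 42.9 CPM with oxamate, against 51.5, 55.2 and 59.3 CPM in untreated cells (log2 change -0.49, SE 0.10, limma-voom adjusted p = 0.012). With octyl-L2HG plus oxamate Hsph1 stood at 38.6, 40.4 and 41.3 CPM, within the range of the oxamate libraries. Hspb9 had 403, 304 and 306 CPM with oxamate, against 500, 418 and 486 CPM in untreated cells (log2 change -0.48, adjusted p = 0.035, limma-voom). The groups of Hspb9 do not overlap, and within each letter the oxamate library lies below the untreated one. Most calls here were lost in some alternative settings, and the cause was not tested. That of Hsph1 was lost without untreated library B or C (highest limma-voom adjusted p 0.076). Those of Dnajb5 and Hspb9 were lost in 6 of 16 settings (highest 0.12 and 0.14), while Dnajc13 passed in all 16. The log2 changes kept their sign, at -0.565 to -0.414 for Hsph1, 0.394 to 0.481 for Dnajb5 and -0.617 to -0.412 for Hspb9.

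The block brought further members past the threshold. Dnajb1, the main stress-induced type B partner of HSP70, had 436, 371 and 347 CPM with oxamate, against 483, 466 and 473 CPM in untreated cells (log2 change -0.31, adjusted p = 0.062 without and 0.010 with the block, limma-voom). Hspa2 had 2125, 2387 and 2344 CPM with oxamate, against 2556, 2870 and 2735 CPM in untreated cells (log2 change -0.25, adjusted p = 0.11 without and 0.014 with the block). Dnajb4 had 159, 220 and 221 CPM with oxamate, against 129, 153 and 142 CPM in untreated cells (log2 change 0.49, adjusted p = 0.064 without and 0.0060 with the block). Dnajc17, Dnajc7, Dnajc16, Hspa13, Dnajc10 and Hspe1 were the other members called higher with the block, and Dnajb3, Dnajc27 and Hspa12a the others called lower. All 10 testis members had a log2 change below 0, from -0.48 to -0.01, against 17 of the other 54 members. The share of all genes below 0 was not counted. The median was -0.13 for the testis members, 0.08 for the other 54 and -0.01 for all genes. Of the 10, 1 was called lower without the block and 3 with it, against 3.84% and 9.99% of all genes. In these 2 groups the elongating spermatid sums were 1157, 937 and 1136 CPM with oxamate, against 1462, 1237 and 1398 CPM in untreated cells. Of those 12 markers 0 passed the test, and of 12 pachytene and diplotene markers 3 were lower. Their part in the values of the testis members was not tested.

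**Figure D4:**
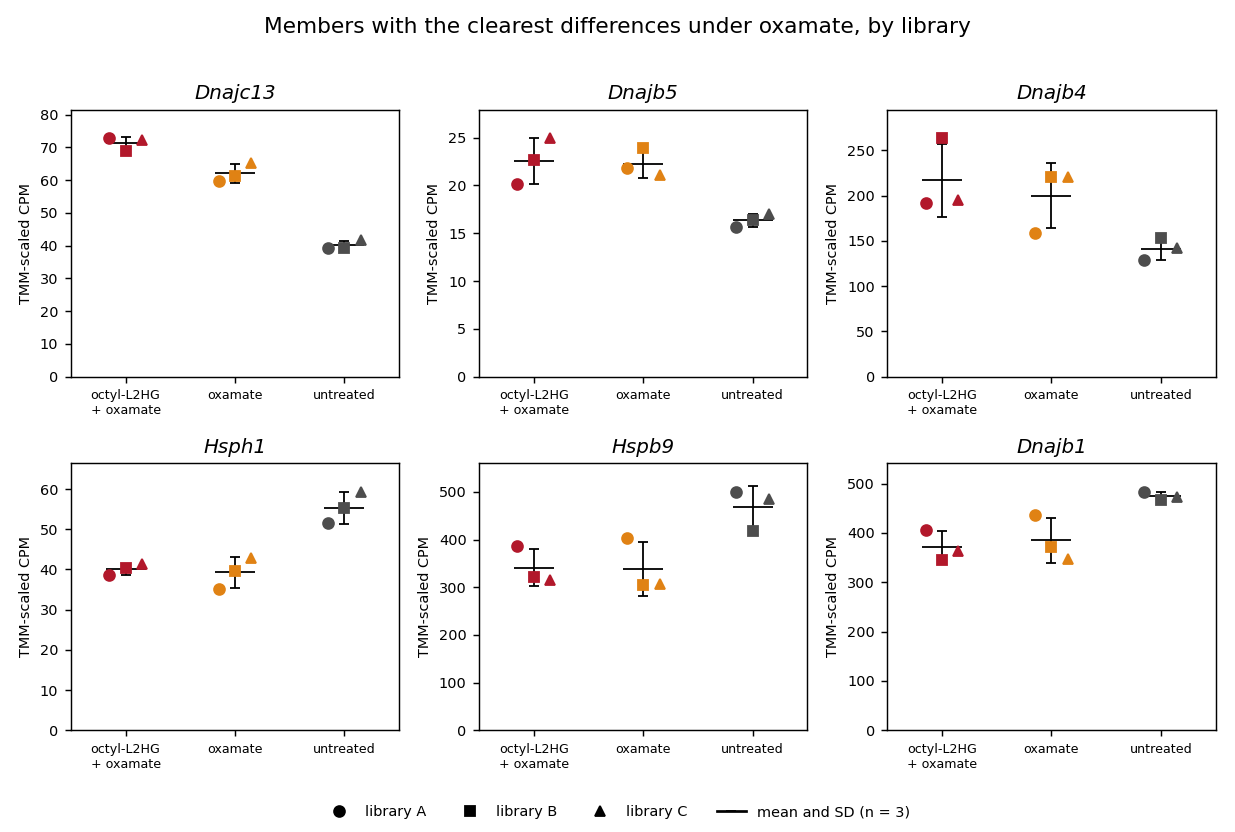
Levels of 6 members in each library (y axis, TMM-scaled CPM from 0; x axis, group; symbols for libraries A, B and C; line and bar for mean and SD, n = 3). In Dnajc13, Dnajb5 and Dnajb4 both treated groups lie above all untreated libraries, and in Hsph1, Hspb9 and Dnajb1 both lie below them.

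Octyl-L2HG plus oxamate against untreated cells gave the most calls, 13 members higher and 16 lower, against 17.2% of all tested genes higher and 21.1% lower (limma-voom), so both shares are again near the background. It shares the treated libraries with the first comparison and the untreated libraries with the second, so it is no separate evidence for either. Falls of at least 2-fold numbered 8 members, against 13.6% of all genes. Over the 62 members that reached the filter's level in all libraries, 14 fell, 6 of them at least 2-fold, again with no matched share of all genes. Without octyl-L2HG library C, 27 of the 29 calls were kept, and those of Dnajc14 (adjusted p = 0.07) and Hspa13 (adjusted p = 0.052, limma-voom) were lost. Of the testis members 8 of 10 fell and 0 rose, with a median log2 change of -0.43, against 13 higher and 8 lower among the other 54 with a median of 0.17 and a median of 0.01 over all genes. The 2 testis members that did not pass were Hspa4l (log2 change -0.05, 95% interval -0.23 to 0.14) and Dnajc5g (0.06, 95% interval -0.17 to 0.29). The authors' deposited table gave 15 members higher and 16 lower for this comparison, and 2 higher and 9 lower for octyl-L2HG plus oxamate against oxamate.

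The steep falls against untreated cells were near in size to those against oxamate: Dnajb8 fell 14.3-fold, Hspa1l 9.83-fold, Dnajb7 8.78-fold, Dnajc5b 4.35-fold, Dnajc19 2.42-fold and Dnaja4 2.30-fold, at limma-voom adjusted p from 1.6e-05 to 0.00012. Hspa12b and Dnajc22, at 2 to 3 and 5 to 8 counts with octyl-L2HG plus oxamate, against 8 to 35 and 9 to 16 counts in untreated cells, were also called, but both passed the filter only through the groups in which they were higher. The call of Dnajc22 was lost in 8 of 15 alternative settings (highest adjusted p 0.2, limma). Smaller falls were those of Dnajc9, a histone chaperone with a J domain (log2 change -0.63), Hsph1 (-0.46), Hspb9 (-0.46), Dnajb13 (-0.41), Hspa2 (-0.35), Dnajb1 (-0.35), Dnajb3 (-0.25) and Dnajc27 (-0.21). Hspa2 had 1977, 2464 and 1986 CPM with octyl-L2HG plus oxamate, all below the 2556 to 2870 CPM of untreated cells (limma-voom adjusted p = 0.011), and without octyl-L2HG library A its call was lost (adjusted p = 0.053). Dnajb3 had 350 to 361 CPM, below the 370 to 376 CPM of the oxamate libraries and the 411 to 434 CPM of untreated cells, so its 3 groups were ordered without overlap.

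The 13 rises were all below 2-fold. They led with Dnajc13 (log2 change 0.83, SE 0.08, limma-voom adjusted p = 2.6e-05), the nuclear protein Dnajc17 (0.71), Dnajb4 (0.60) and Hspa14 (0.57), an HSP70 that works at the ribosome with Dnajc2. Dnajc17 had 5.49, 5.68 and 4.95 CPM with octyl-L2HG plus oxamate, 4.61, 4.71 and 4.58 CPM with oxamate and 3.80, 3.26 and 2.76 CPM in untreated cells, again in order without overlap. Dnajc10 (0.49), Dnajc7 (0.47), Dnajc16 (0.46), Dnajb5 (0.46), Dnaja3 (0.41) and Dnajc28 (0.40) followed, and Hsp90ab1 (0.36), Hspa13 (0.29) and Dnajc14 (0.28) were smallest. Dnaja3, the mitochondrial type A protein, had 48.6, 49.6 and 47.9 CPM with octyl-L2HG plus oxamate, against 42.2, 42.4 and 40.8 CPM with oxamate and 36.7, 36.0 and 37.3 CPM in untreated cells. Hsp90ab1, the constitutive cytosolic HSP90, had 178, 222 and 178 CPM, against 162, 168 and 202 CPM with oxamate and 151, 145 and 151 CPM in untreated cells, so only the untreated group stood apart. By contrast Hsp90aa1 overlapped between all groups (log2 change 0.01, 95% interval -0.22 to 0.25). The rises of Dnajc7, Dnajc28, Dnajc14, Hspa13 and Hspa14 were each lost in 7 to 10 of 16 alternative settings, and that of Hsp90ab1 in 4. Windows of 50 bases also found in other genes made up 25.4% for Dnajc17, 25.6% for Dnajc14, 15.6% for Hspa14 and 15.3% for Dnajc7, which limits their levels.

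**Figure D5:**
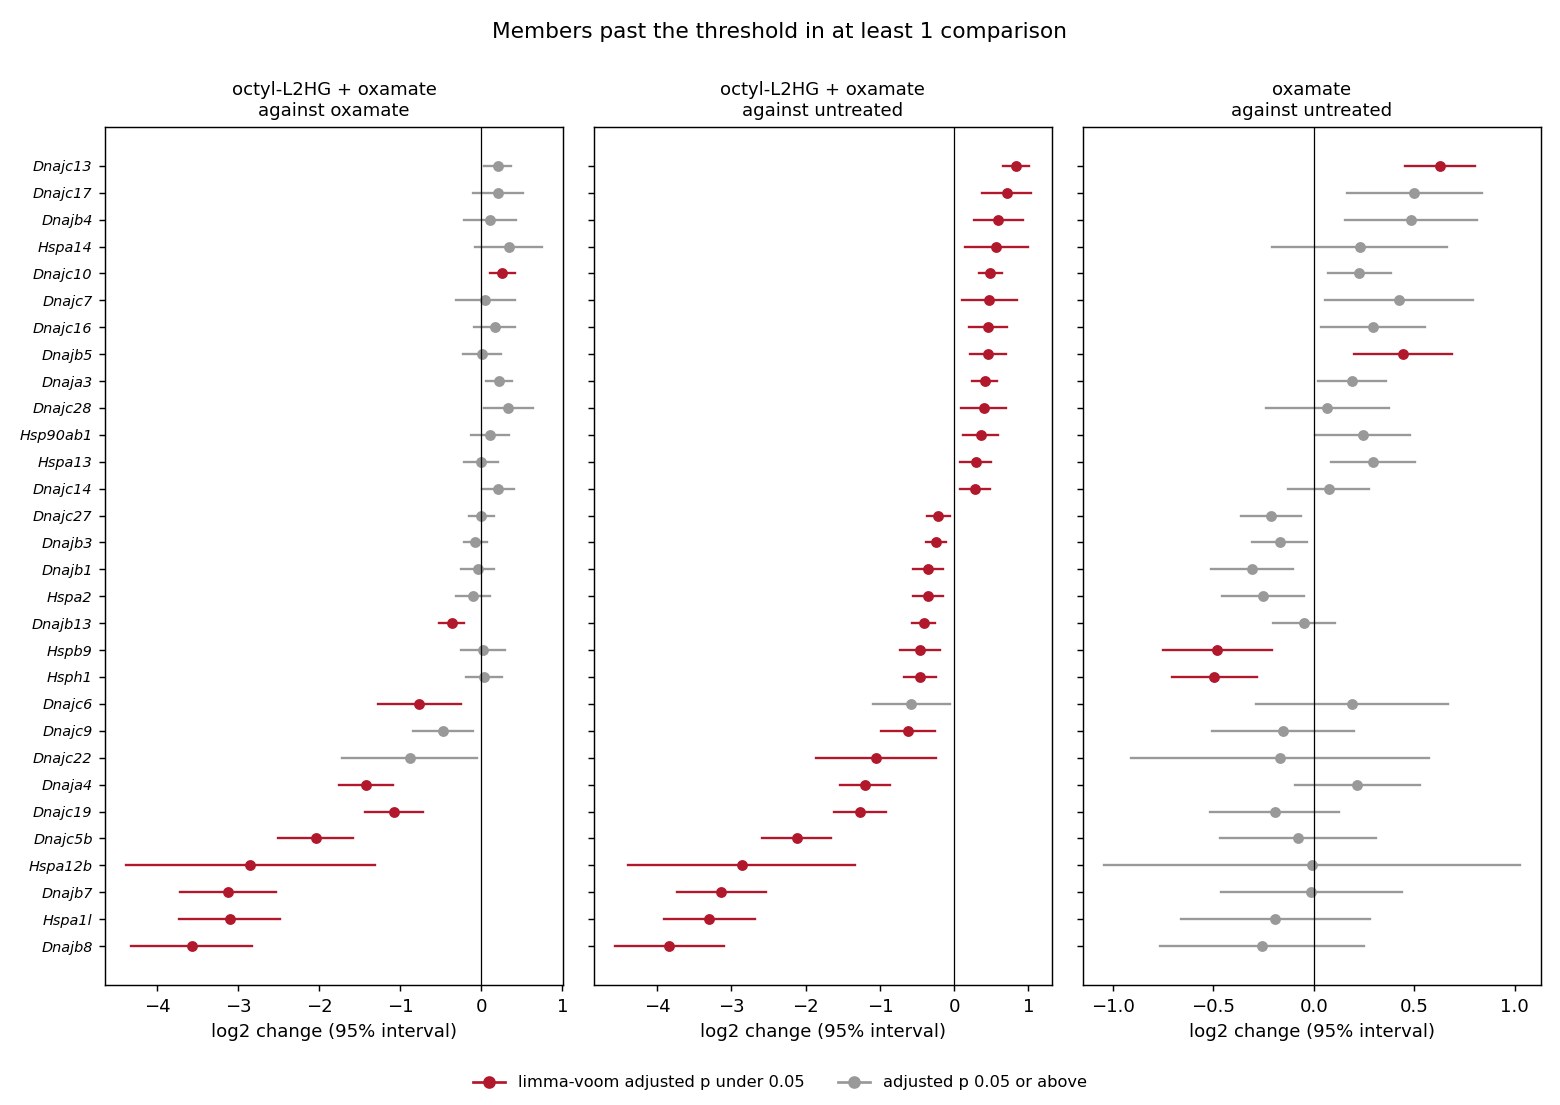
Log2 change with 95% interval (x axes, which differ between panels) of the 30 members past an adjusted p of 0.05 in at least 1 comparison, ordered by their change in octyl-L2HG plus oxamate against untreated cells. Red marks an adjusted p under 0.05; only Dnajb8, Hspa1l, Dnajb7, Hspa12b, Dnajc5b, Dnajc19, Dnaja4 and, against untreated cells, Dnajc22 reach a 2-fold fall, and no rise reaches 2-fold.

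Genes that regulate or work with these chaperones were examined as a list of 55, of which 52 were tested: heat shock factors, co-chaperones of HSP70 and HSP90, the ring chaperonin CCT and the prefoldins that feed it. The list was chosen by function and not by movement, though with earlier results of these data known. With octyl-L2HG plus oxamate against oxamate 2 rose and 2 fell (limma-voom), against 4.11% of all tested genes higher and 15.4% lower. With oxamate against untreated 4 rose and 3 fell, against 5.74% and 3.84% of all genes. With octyl-L2HG plus oxamate against untreated 9 rose and 9 fell, against 17.2% and 21.1% of all genes. Hsf1, the main heat shock factor, had 31.7, 31.6 and 35.2 CPM with octyl-L2HG plus oxamate, 33.9, 31.8 and 32.6 CPM with oxamate and 32.3, 32.2 and 34.6 CPM in untreated cells, so the groups overlap fully. Hsf2, a factor needed for normal spermatogenesis in mice, had 21.7, 24.9 and 27.4 CPM with octyl-L2HG plus oxamate, against 38.6, 41.3 and 43.3 CPM with oxamate and 31.9, 30.6 and 31.6 CPM in untreated cells. Hsf2 was thus highest with oxamate and lowest with octyl-L2HG, without overlap. Its log2 change was -0.74 against oxamate (SE 0.10, limma-voom adjusted p = 0.00032), and 0.38 for oxamate against untreated (adjusted p = 0.037, lost in 6 of 16 alternative settings).

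Clpb, a mitochondrial protein disaggregase, had 31.9, 23.8 and 45 CPM with octyl-L2HG plus oxamate, against 86.2, 66.0 and 72.9 CPM with oxamate and 103, 80.8 and 82.4 CPM in untreated cells. It fell 2.26-fold against oxamate (log2 change -1.17, limma-voom adjusted p = 0.00095), with octyl-L2HG library C again the highest of its group. Without that library the log2 changes against oxamate were -1.41 for Clpb and -0.83 for Hsf2. Ahsa1, an activator of the HSP90 ATPase, rose in both comparisons with untreated cells, with log2 changes of 0.63 for octyl-L2HG plus oxamate and 0.42 for oxamate (limma-voom); the call for oxamate was lost in 6 of 16 alternative settings (highest adjusted p 0.13). The prefoldin gene Vbp1 rose in both as well (0.81 and 0.95 in the same order), with 30 to 116 counts in any library, and its call for oxamate was lost without untreated library B or C (highest adjusted p 0.067). Chordc1, an HSP90 co-chaperone, had 16.4, 16.7 and 14.7 CPM with octyl-L2HG plus oxamate, against 8.11, 12.7 and 12.2 CPM with oxamate (log2 change 0.56, adjusted p = 0.029 by limma-voom, lost in 8 of 16 alternative settings). Against untreated cells, octyl-L2HG plus oxamate also gave a rise of the prefoldin gene Pfdn4 (log2 change 0.53) and a fall of Bag6 (-0.31), a chaperone needed in male meiosis in mice. With the letter as a block the list gave 4 higher and 9 lower for oxamate against untreated, against 12.1% and 9.99% of all genes, the added falls including Cct3, Cct6b and Cct7 of the CCT ring and Bag3.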

How the data were processed

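RNA was extracted with a Qiagen mini kit and poly-A libraries were made with KAPA's stranded mRNA kit, per the labels' protocols. Tools named in the submitters' processing notes, in no stated order, are HTSeq 0.6.0, DESeq2 1.22.2, cutadapt 1.18, bcl2fastq 2.18.0.12 and TopHat2 2.1.1, with the build GRCm38 and no settings. The deposited table lists 55471 genes. Per the file headers it holds raw counts by library, normalized values that were not used, and the authors' own log2 changes with adjusted p-values. Genes with question marks in place of counts, 6255 in all, were dropped. Those marks keep the raw columns from being recorded under the unit counts, and no negative binomial test was run.

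Genes were kept with at least 0.288 CPM (10 counts in the median library) in 3 libraries and a total of 15. Scaling factors were trimmed means of log ratios (TMM, 30% of log ratios and 5% of log levels trimmed). Limma 3.58.1 in R 4.3.3 fitted voom weights and robust empirical Bayes, with 1 mean per group over all 9 libraries. P-values were adjusted by Benjamini-Hochberg over 18234 genes, threshold 0.05. CPM values are scaled, with SD over 3 libraries; counting error matters only for genes with few counts. The fit was tested on simulated data. No pair of libraries within a group agreed within sampling noise.

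Deviations of same-letter libraries correlated at 0.40, 0.40 and 0.29 for oxamate and untreated, each over 0.1. The letter was used there as a block beside the main fit. The blocked fit took all 9 libraries, with each letter's effect shared by all groups. The octyl-L2HG libraries therefore entered that effect, and a block on the oxamate and untreated libraries alone was not run. For octyl-L2HG plus oxamate and oxamate, letters A, B and C correlated at 0.31, 0.39 and 0.04. For octyl-L2HG plus oxamate and untreated they correlated at 0.17, 0.34 and 0.06. Because letter C was low in both, these comparisons were taken as unpaired. Named genes are the 30 members past the threshold in any comparison, a fixed set of members, Hsf1, Hsf2 and the co-chaperones with the smallest adjusted p; the few others were added with their values known, and a few genes that the rule covers are not reported here. Members and lists were chosen with earlier results of these data known. Exon overlaps and shared windows of 50 bases come from GENCODE M21, also on GRCm38, and promoter windows from RefSeq.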

Additional observations from a re-analysis of the deposited data

How the results depend on the processing

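The 16 alternatives were other scalings, filters on low counts, limma without weights, fits on only the 6 libraries compared, the replicate block and each of 9 libraries left out. Of 58 calls of named genes, 35 were kept in all of them, 23 were lost at least once and 0 were reversed; Hspa1l, Dnajb7, Dnajb8, Dnajc5b, Dnaja4, Dnajc19 and Dnajb13 were kept against both oxamate and untreated cells, and Dnajc13 in both comparisons with untreated cells. Other scalings shifted the median over all genes by at most 0.031 (log2).

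Members called for oxamate against untreated numbered 4. They were 16 with the replicate block, 8 with only the 6 libraries compared, and 1 to 9 with a library left out. They were 2 without untreated A, oxamate B or oxamate C, 1 without untreated B or C, 7 without oxamate A and 9 without octyl-L2HG library B. Members called for octyl-L2HG plus oxamate against oxamate numbered 10, and 8 to 11 with a library left out. With the block they were 14, in a comparison taken as unpaired because of letter C. Against untreated the 29 members became 19 to 30, lowest without untreated A, and 35 with the block.

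Co-chaperones called for oxamate against untreated numbered 7, or 13 with the replicate block and 1 to 8 with a library left out. For octyl-L2HG plus oxamate against oxamate they numbered 4, or 2 with only the 6 libraries compared, 2 with at least 1 CPM in 3 libraries, and 2 to 4 with a library left out. Against untreated they numbered 18, or 11 to 19 with a library left out. The cause of these shifts was not tested. Depth limits Hspa12b, Dnajc22, Dnajc6, Hspd1, Hspe1 and Hspb1, which had at most 82 counts.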
